A study of Mus musculus with 14 samples.

Results

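The replication-dependent core histone genes were measured by RNA sequencing while mouse embryonic fibroblasts were being reprogrammed. They were taken as every gene whose symbol starts with Hist1 to Hist4 and names an H2a, H2b, H3 or H4 histone, with the linker histones left out, which gave 58 of the 26962 genes listed in any library. The cells came from strain OG2/129SV, carried virally delivered Oct4, Sox2, Klf4 and c-Myc in every group, and were kept in embryonic stem cell medium with 15% fetal bovine serum and LIF. The groups with Cdk9-DN, read here as a dominant-negative version of the kinase Cdk9, were sampled 3, 4, 5 and 10 days after infection, and the groups with the control vector on the same days. Day 3 had 1 library per vector and days 4, 5 and 10 had 2, so there were 14 libraries in 8 groups. The share of cells that carried every vector, and the share on the way to pluripotency, were not given in the sources used here.

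Core histones build the nucleosome: H2A pairs with H2B, H3 pairs with H4, and DNA winds around the assembled octamer. The genes of this family lie in clusters and are transcribed mainly in S phase, when new chromatin needs histones in bulk. Their mRNAs typically end in a conserved stem-loop, bound by the stem-loop binding protein Slbp, in place of a poly(A) tail. Cdk9, the catalytic part of P-TEFb, helps RNA polymerase II leave promoter-proximal pauses, and in human cells CDK9 has also been linked to the 3′ end processing of histone mRNAs.

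The members comprised 16 H2A, 18 H2B, 11 H3 and 13 H4 genes. Of these, 48 carry Hist1 symbols and lie on chromosome 13, all in the Hist1 cluster except Hist1h2al (mm9 chr13:51298056-51298434). The Hist2 cluster on chromosome 3 held 7, the Hist3 cluster on chromosome 11 held 2, and Hist4h4 lay alone on chromosome 6. Levels are FPKM, that is fragments per kilobase of transcript scaled to sequencing depth, so they can be compared between genes. Of the 12 libraries of days 4, 5 and 10, at least 2 had to reach 1 FPKM, a filter that 55 members passed, and Hist1h2aa, Hist2h4 and Hist4h4 did not pass. All 14 libraries listed 27 members, and the other 31 had no value in at least 1 library, which was treated as missing and not as 0.

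The stem-loop is shown because it is the element that sets this family apart from other mRNAs. GENCODE M21 transcripts were available for 46 members under the deposited gene identifiers, and 29 of these members held a 16-base stem-loop with a stem of 6 bases and a loop of 4. The same search found it in 86 of all 55450 genes (0.155%). Many of the other member transcripts are annotated without their full 3′ end, so no match says only that these letters are not in the transcript searched. In the lines below, capitals mark the stem-loop, with 5 bases on either side, written as DNA.

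Hist1h2ab: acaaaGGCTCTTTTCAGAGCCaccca
Hist1h2bj: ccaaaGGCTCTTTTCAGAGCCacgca
Hist3h2ba: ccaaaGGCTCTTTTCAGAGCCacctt
Hist1h3b: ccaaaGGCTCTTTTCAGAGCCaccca
Hist2h3c2: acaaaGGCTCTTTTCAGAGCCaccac
Hist1h4i: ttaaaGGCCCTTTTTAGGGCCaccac
Hist1h4n: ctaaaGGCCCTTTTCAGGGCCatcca

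The H4 stem differed from that of the other classes. The 16 letters of Hist1h2ab were shared by 5 H2A, 5 H2B and 3 H3 members, and those of Hist1h4n by 6 H4 members. Among the H2B genes, the transcripts of Hist1h2bc (1156 bases) and Hist2h2be (2620 bases) held no match. Hist3h2ba did hold one, with 169 further transcript bases after it.

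Promoters of 49 members were found in the RefSeq table (build GRCm38.p6, 250 bases before to 50 after the start). They were searched on both strands for the letters CCAAT, for TATAAA and for ATTTGCAT, the last being the octamer described in histone H2B promoters, and matches that overlapped another motif were counted. CCAAT or its complement occurred in 40 of the 49 (81.6%), against 37.4% of all 32851 promoters in the table. TATAAA occurred in 28 (57.1%), against 13.6% of all promoters. The octamer occurred in 11 (22.4%), against 1.74% of all promoters, and these were 5 of 13 H2A and 6 of 15 H2B genes and 0 of 9 H3 and 0 of 12 H4 genes. CCAAT was present in every H2A, H2B and H3 promoter searched and in 3 of 12 H4 promoters. Some neighbouring promoters share bases, so these counts are not of separate sequences. Those of Hist1h2ah and Hist1h2bk overlap on opposite strands, as do Hist1h2ae and Hist1h2bg, and Hist1h2aa and Hist1h2ba. In each of these pairs 1 octamer site counts for both genes. Hist1h2bq and Hist1h2br have the same promoter letters. An H2A, an H3, an H4 and an H2B promoter are printed, chosen because their genes carry the results below, with the motifs in capitals: Hist1h2ab (chr13:23750838-23751137, plus strand), Hist1h3b (chr13:23752095-23752394, plus strand), Hist1h4n (chr13:21832148-21832447, minus strand) and Hist3h2ba (chr11:58948661-58948960, plus strand).

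Hist1h2ab: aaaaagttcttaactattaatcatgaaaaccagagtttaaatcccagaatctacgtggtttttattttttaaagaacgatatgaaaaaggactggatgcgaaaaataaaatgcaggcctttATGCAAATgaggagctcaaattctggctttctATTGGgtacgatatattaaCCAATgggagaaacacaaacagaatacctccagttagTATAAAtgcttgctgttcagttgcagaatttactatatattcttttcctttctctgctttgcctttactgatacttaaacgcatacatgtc
Hist1h3b: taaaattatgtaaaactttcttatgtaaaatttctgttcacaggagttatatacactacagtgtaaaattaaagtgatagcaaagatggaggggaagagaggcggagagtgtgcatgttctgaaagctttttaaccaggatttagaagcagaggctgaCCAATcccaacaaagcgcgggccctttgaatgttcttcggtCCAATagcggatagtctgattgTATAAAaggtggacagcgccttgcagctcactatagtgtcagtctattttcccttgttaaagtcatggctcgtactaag
Hist1h4n: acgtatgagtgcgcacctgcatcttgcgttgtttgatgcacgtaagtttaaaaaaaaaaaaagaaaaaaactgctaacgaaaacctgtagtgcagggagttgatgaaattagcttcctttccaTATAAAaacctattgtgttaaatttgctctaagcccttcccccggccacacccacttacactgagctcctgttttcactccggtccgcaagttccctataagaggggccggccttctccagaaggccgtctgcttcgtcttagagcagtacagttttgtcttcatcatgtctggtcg
Hist3h2ba: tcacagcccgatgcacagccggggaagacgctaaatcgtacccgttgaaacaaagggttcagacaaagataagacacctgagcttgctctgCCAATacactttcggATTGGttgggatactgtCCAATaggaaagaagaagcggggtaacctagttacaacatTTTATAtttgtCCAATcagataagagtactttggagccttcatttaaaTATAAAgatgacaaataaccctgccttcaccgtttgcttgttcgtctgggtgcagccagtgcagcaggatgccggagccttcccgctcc

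The depth implied by the deposited bounds was 8790000 to 13000000 fragments per library (3 significant digits), and the median member rested on 19.1 implied fragments per library (6.06 to 249.8 over members). Libraries with a lower bound of 0 were left out of the member values. These are therefore too high for genes near the floor, such as Hist3h2ba (7 of 14 libraries used) and Hist3h2bb-ps (4 of 14). The 10 highest genes took 33.4% to 76.1% of the summed FPKM, with the highest share in control replicate 2 of day 5. Cdk9 itself was not analysed here, so the vector labels were taken as given. No batch was given in the labels. Nothing in them says that replicates were separate cultures, so p-values measure only the spread between libraries. As these are bulk samples, fewer cells of a type and less RNA per cell cannot be told apart. Whether poly(A) RNA was selected was not given in the sources used here, and such a selection would keep histone mRNAs that carry a tail.

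Levels were low to moderate and differed by class. The mean FPKM over the 12 libraries had a median of 4.76 over the 55 members past the filter and ranged from 0.927 for Hist1h3f to 38.3 for Hist1h2bc. The class medians were 7.64 for H2A, 5.59 for H2B, 2.33 for H3 and 4.76 for H4. Hist1h2al had the highest mean among H2A genes (23.0 FPKM), Hist2h3b among H3 genes (4.00 FPKM) and Hist1h4i among H4 genes (15.3 FPKM). Near-identical copies limit single values: Hist1h2ao and Hist1h2ap were equal within 1e-06 in 12 of the 13 libraries that listed both, so they are 1 measurement under 2 names, and counts are given without Hist1h2ap where they lead. GENCODE M21 annotates Hist1h2al and Hist3h2bb-ps as processed pseudogenes, Hist1h2aj as an unprocessed pseudogene and the identifier of Hist2h2bb as a lincRNA.

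Summed over the members listed in every library, H3 and H4 mRNA was higher with Cdk9-DN at day 10, while the H2B libraries overlapped when the Hist3 genes were included. The sum of 6 H3 genes was 18.2 and 17.7 FPKM in Cdk9-DN cells at day 10, against 8.07 and 6.15 FPKM in control cells. That is a ratio of 2.52, and the libraries did not overlap. The sum of 8 H4 genes was 31.6 and 29.5 FPKM in Cdk9-DN cells, against 17.3 and 13.3 FPKM in control cells, a ratio of 2.0. The sum of 6 H2A genes was 55.0 FPKM in both Cdk9-DN libraries, against 38.5 and 36.3 FPKM in control cells, a ratio of 1.47. Without Hist1h2al, the H2A sum was 27.0 and 27.5 FPKM in Cdk9-DN cells, against 17.7 and 15.9 FPKM in control cells, a ratio of 1.63. For 7 H2B genes the sum was 36.2 and 42.3 FPKM in Cdk9-DN cells, against 34.0 and 36.6 FPKM in control cells. Its ratio was 1.11 and the libraries overlapped. Without the 2 Hist3 genes, left out after their values were seen, the H2B sum was 29.2 and 32.0 FPKM in Cdk9-DN cells, against 23.1 and 23.8 FPKM in control cells, a ratio of 1.30 with no overlap. Hist1h2bc was not listed in every library and is not in these sums.

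On the earlier days the ratios of Cdk9-DN to control stayed nearer to 1 for H3, H4 and H2A. For H3 they were 0.798 at day 3, 0.956 at day 4 and 1.23 at day 5, and for H4 0.984, 1.05 and 1.26 on the same days. For H2A they were 0.981, 0.911 and 1.01, and for H2B 1.09, 1.12 and 1.26. With the Hist3 genes included, the H2B ratio was thus larger at day 5 than the 1.11 of day 10. Without them it was 1.30 at day 10. The earlier days were not summed without them, so days 5 and 10 cannot be compared on that set. The sums are descriptions and carry no test.

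**Figure D1:**
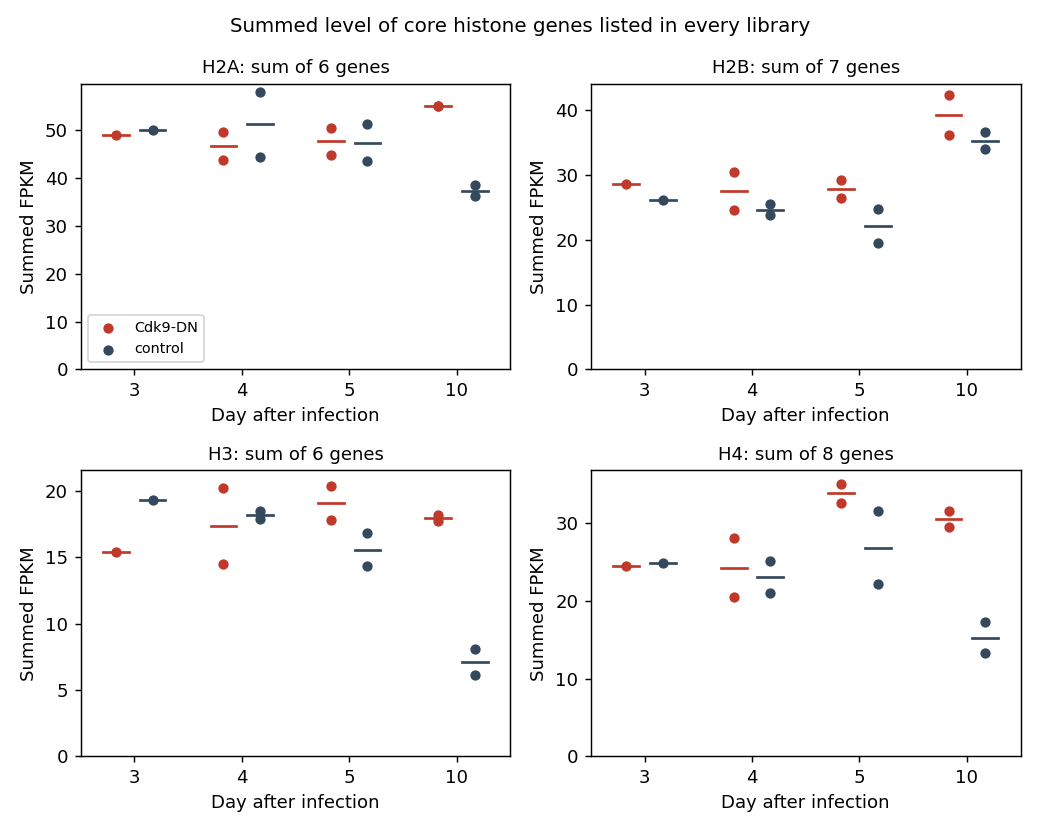
Summed FPKM of the core histone genes listed in all 14 libraries, by class (vertical axis), against the day after infection (horizontal axis), with Cdk9-DN left of control. Each point is 1 library and each bar the group mean. At day 10 the H3 sums of 18.2 and 17.7 with Cdk9-DN lie above the 8.07 and 6.15 of the control vector.

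Gene by gene, the Cdk9-DN effect was tested on log2(FPKM + 1), a scale that understates the change of low genes. The model was fitted to all genes past the filter with limma-type moderated variances, two-sided p-values were adjusted after Benjamini and Hochberg across every gene tested in that comparison, and a gene was called under 0.05. At day 10, 26 of 52 tested members were higher with Cdk9-DN and 1, Hist2h2be, was lower, or 25 and 1 of 51 without Hist1h2ap. Of all 5740 genes tested, 14.5% were called higher and 14.4% lower. The median difference was 0.64 over the members and 0.00 over all genes. Of 41 members with all 4 day 10 libraries, 37 had both Cdk9-DN values above both control values, and 2 had both below, against 30.3% and 30.2% of all such genes. The count rests on the replicates: it was 14 members without control replicate 2 of day 10 and 15 without Cdk9-DN replicate 1, and 12 of the 26 kept their call in every fit without 1 library.

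H3 genes, which encode the core of the nucleosome's H3-H4 tetramer, were called higher in 8 of 10 tested members, with a median log2 difference of 0.79. Of the 8 calls, 2 held in every fit without 1 library, Hist1h3b and Hist2h3c2, and 6 were lost in at least 1. Hist2h3c2 had 3.58 and 3.57 FPKM in Cdk9-DN cells, against 1.34 and 1.23 FPKM in control cells. The groups did not overlap, and the log2 difference was 1.0 ± 0.106 (SE, n = 2 each, limma-type adjusted p = 7.42e-04). Hist1h3b had 3.35 and 2.94 FPKM in Cdk9-DN cells, against 1.18 and 0.786 FPKM in control cells, again without overlap. Its log2 difference was 1.07 ± 0.202 (limma-type adjusted p = 0.00826), and the ratio of means was 3.21. Hist1h3i, at 4.31 FPKM in the 1 Cdk9-DN library that listed it and 1.85 and 1.48 FPKM in control cells, differed by 1.0 (limma-type adjusted p = 0.0352). That call was lost without control replicate 1 (0.0772) or 2 (0.109) of day 10, and without either control library of day 4 or either Cdk9-DN library of day 5 (adjusted p up to 0.0564). Hist1h3c (adjusted p up to 0.0735), Hist1h3g (0.108) and Hist1h3h (0.0901) lost theirs when any 1 of the 4 libraries of day 10 was left out, and Hist1h3a without Cdk9-DN replicate 1 (0.0766) or control replicate 2 (0.0709). Hist2h3b lost its call without Cdk9-DN replicate 1 (0.135), Cdk9-DN replicate 2 (0.105) or control replicate 2 (0.159) of day 10, and without either control library of day 4 or either Cdk9-DN library of day 5 (up to 0.0577). Hist1h3f (0.56) and Hist1h3e (0.41) were the H3 members tested that did not pass.

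H4 genes, whose products pair with H3, were called higher in 5 of 11 tested members, with a median of 0.80, and the differences of all 11 were positive. Hist1h4i had 18.1 and 17.5 FPKM in Cdk9-DN cells, against 9.02 and 8.48 FPKM in control cells, so each Cdk9-DN library stood well above both controls. The log2 difference was 0.95 ± 0.125 (SE, limma-type adjusted p = 0.00306). Hist1h4n had 5.83 and 6.28 FPKM in Cdk9-DN cells, against 3.11 and 3.02 FPKM in control cells, a difference of 0.80 ± 0.110 (limma-type adjusted p = 0.00227). Both calls held in every alternative that could be fitted. Hist1h4c (1.0), Hist1h4h (0.85) and Hist1h4d (0.70) were also called, and Hist1h4h lost its call without control replicate 2 (adjusted p = 0.0737) or without Cdk9-DN replicate 1 of day 10 (adjusted p = 0.0864). The Hist1h4c call was lost when any 1 of the 4 libraries of day 10 was left out (0.0636 to 0.0819), and that of Hist1h4d without control replicate 2 (0.129), Cdk9-DN replicate 1 (0.122) or Cdk9-DN replicate 2 of day 10 (0.103) and without either Cdk9-DN library of day 5 (up to 0.0563). The 6 others had differences of 0.62 to 1.13 that did not pass.

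H2A genes were called higher in 10 of 15 tested members (9 of 14 without Hist1h2ap), with a median of 0.65. Of the 10 calls, 6 held in every fit without 1 library that could be run. The other 4, those of Hist1h2ad, Hist1h2ah, Hist1h2ak and Hist1h2ap, were lost in at least 1 such fit. Hist1h2ab had 8.55 and 9.30 FPKM in Cdk9-DN cells, against 5.08 and 4.92 FPKM in control cells, and the groups did not overlap. The log2 difference was 0.73 ± 0.0896 (SE, limma-type adjusted p = 0.00140). Hist1h2af, with 10.3 and 11.1 FPKM in Cdk9-DN cells against 6.30 and 5.74 FPKM in control cells, differed by 0.74 ± 0.0791 (limma-type adjusted p = 0.00139). The 10 called genes spanned log2 differences of 0.52 to 0.76 and all lay in the Hist1 cluster. Neither Hist2 H2A gene passed: Hist2h2aa2 differed by 0.44 (limma-type adjusted p = 0.0998) and Hist2h2ac by 0.27 (limma-type adjusted p = 0.189). Hist1h2al, the H2A gene with the highest level and a processed pseudogene in GENCODE M21, had 27.9 and 27.5 FPKM in Cdk9-DN cells and 20.8 and 20.4 FPKM in control cells, and its difference of 0.41 did not pass (limma-type adjusted p = 0.251). It passed with a replicate block (limma-type adjusted p = 0.0194).

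H2B genes, the partners of H2A, were called higher in 3 of 16 tested members and lower in 1, with a median of 0.32. The differences of all 12 tested Hist1 H2B genes were positive, with a median of 0.35. Hist1h2bc, the most abundant member, had 41.5 and 44.8 FPKM in Cdk9-DN cells at day 10, against 34.5 and 35.1 FPKM in control cells. Its log2 difference was 0.30 ± 0.0518 (SE, limma-type adjusted p = 0.00559). It was 0.29 at day 4 and 0.30 at day 5, where the adjusted p was 0.346 and 0.168 by the same test. Hist1h2bj (0.37) and Hist1h2bf (0.45) were the other genes called higher, and Hist1h2bf lost its call without Cdk9-DN replicate 2 (0.0907), control replicate 1 (0.0664) or control replicate 2 of day 10 (0.0880). Hist2h2be was called lower: it had 1.24 and 1.16 FPKM in Cdk9-DN cells, against 2.34 and 2.81 FPKM in control cells, a log2 difference of -0.70 ± 0.102 (limma-type adjusted p = 0.00290). This call held in every alternative that could be fitted. The Hist3 genes Hist3h2ba (-0.48) and Hist3h2bb-ps (-0.18) did not pass. Hist2h2bb, the identifier of which is a lincRNA in GENCODE M21, had 3.62 and 4.73 FPKM in Cdk9-DN cells, against 1.30 and 0.897 FPKM in control cells. Its difference of 1.30 was the largest of all tested members but did not pass. Its deposited lower bound was above 0 in 6 of 14 libraries.

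**Figure D2:**
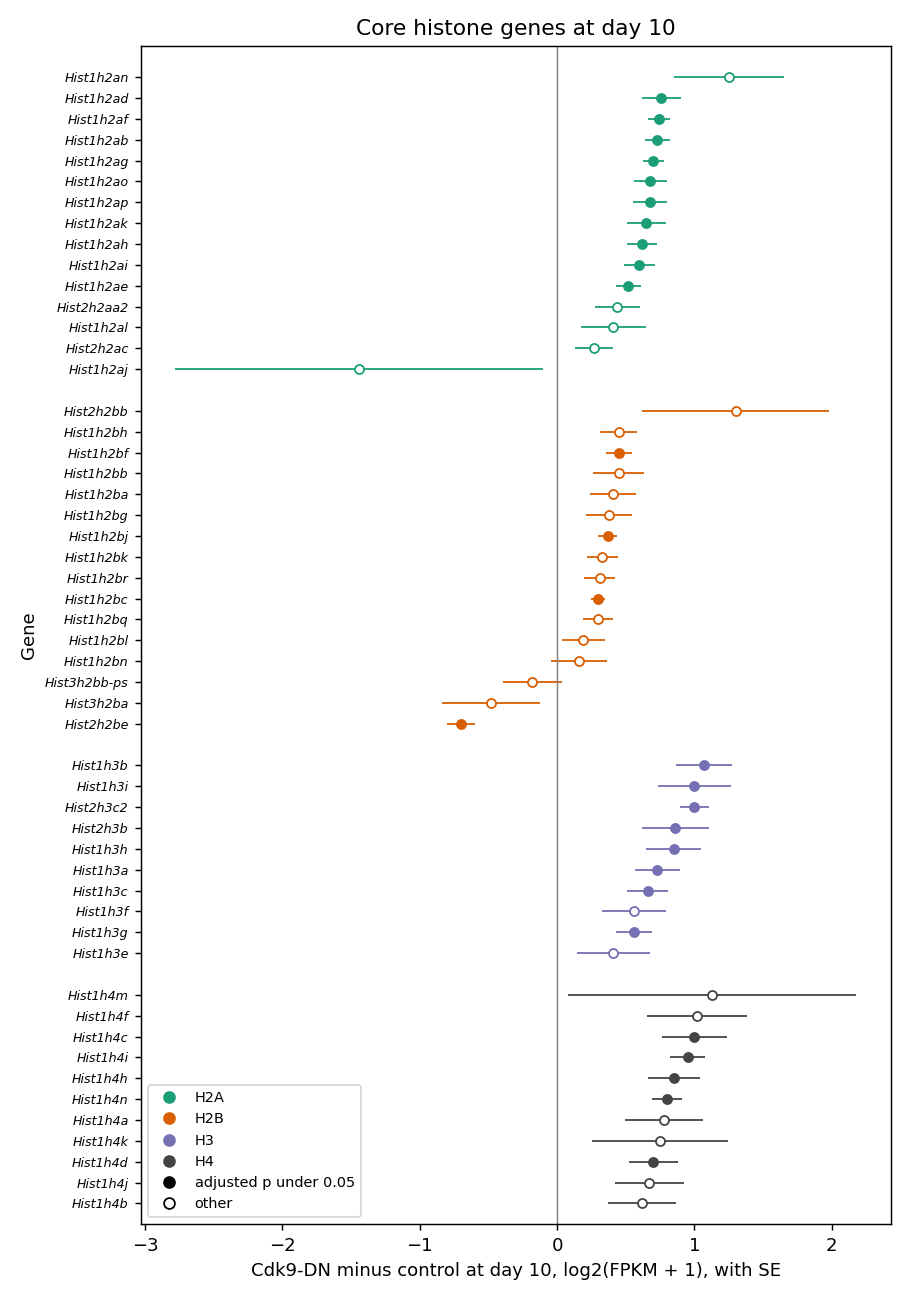
Log2 difference of Cdk9-DN minus control at day 10 on log2(FPKM + 1) (horizontal axis, bars are SE) for the 52 tested core histone genes (vertical axis, by class). Filled points have an adjusted p under 0.05. H3 and H4 differences are all above 0, with medians of 0.79 and 0.80, and Hist2h2be at -0.70 is the filled point below 0.

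Before day 10 no member was called. At day 4, 0 of 52 tested members passed by the limma-type test, 2 had an unadjusted p under 0.05, and of all genes 0% were called higher and 0.0336% lower. Of 43 members with all 4 libraries, 7 had both Cdk9-DN values above both controls and 5 below, against 14.3% and 18.7% of all such genes. At day 5, 0 of 51 passed, 9 had an unadjusted p under 0.05, and of all genes 0.0678% were called higher and 0.102% lower. Of 33 members with all 4 libraries, 14 lay above and 3 below the controls, against 14.2% and 23.5% of all such genes. The member differences had a median of 0.00 and a range of -0.32 to 0.55 at day 4, and a median of 0.09 and a range of -0.27 to 1.46 at day 5. The 1.46 belongs to Hist1h4m, which was listed at 72.3 FPKM in Cdk9-DN replicate 2 of day 5 (deposited bounds 61.6 to 82.9) and at 6.65 FPKM in replicate 1. At day 3, with 1 library per vector and no test, 24 of 48 members listed in both were higher with Cdk9-DN and 24 lower. On the log2(FPKM + 1) scale, Hist2h2bb was past 1.5-fold higher and Hist1h3a past 1.5-fold lower, against 5.08% and 5.07% of all genes. In plain FPKM, 3 members were past 1.5-fold higher and 4 past it lower.

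In control cells, many H2A, H3 and H4 genes fell between days 5 and 10. Of 54 tested members, 22 were called lower at day 10 than at day 5 and 4 higher (21 and 4 of 53 without Hist1h2ap), while 22.5% of all genes tested were called lower and 27.3% higher. The median change was -0.57 over the members and 0.04 over all genes. By class, 7 of 11 H3, 10 of 15 H2A and 4 of 11 H4 genes were called lower, with medians of -0.67, -0.64 and -0.61, against 1 of 17 H2B genes, Hist1h2bf, and an H2B median of 0.05. All 4 genes called higher were H2B genes. Among the H2A genes called lower, Hist1h2ad, Hist1h2ag, Hist1h2ah, Hist1h2ak and Hist1h2ap were listed at day 5 in control replicate 2 but not in control replicate 1. Of 41 members with all 4 libraries, 5 had both day 10 values above both day 5 values and 23 below, against 37.0% and 30.9% of all such genes. The count of called members was 15 without control replicate 2 of day 5 and 17 without control replicate 2 of day 10, and 12 of the 22 kept their call in every fit without 1 library. This comparison shares its control libraries of day 10 with the Cdk9-DN effect at day 10, so they are not independent of each other.

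Hist1h4n was at 3.11 and 3.02 FPKM in control cells at day 10, against 7.02 and 7.13 FPKM at day 5, with no overlap. It fell by 0.99 on the log2 scale (SE 0.110, limma-type adjusted p = 2.67e-04). Hist1h3g, at 0.838 and 0.991 FPKM at day 10 against 3.45 and 3.93 FPKM at day 5, fell by 1.29 (SE 0.131, limma-type adjusted p = 3.57e-04). Hist2h3c2 was at 1.34 and 1.23 FPKM at day 10, against 2.83 and 3.13 FPKM at day 5, and fell by 0.80 (SE 0.106, limma-type adjusted p = 6.38e-04). Hist1h4f fell by 0.97, a call (limma-type adjusted p = 0.0364) that was lost without control replicate 2 of day 5 (0.105) or of day 10 (0.168), and when any 1 library of day 4 or either Cdk9-DN library of day 5 was left out (up to 0.0603).

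In Cdk9-DN cells, few members were called over the same interval. Of 49 tested members, 4 were called higher at day 10 and 1, Hist1h3g, lower, against 22.5% of all genes called higher and 12.4% lower. The member median was 0.07, as over all genes. Of 33 members with all 4 libraries, 12 lay above and 7 below day 5, against 39.5% and 26.8% of all such genes. With median-of-ratios scaling the split was 2 higher and 2 lower and the member median -0.07, and over all genes 947 were called higher and 1005 lower, against 1304 and 715 as deposited. Of the 22 members that fell in control cells, 21 were tested in Cdk9-DN cells and 1 was called lower there. These members were picked by their fall in control cells. The matching share over all genes called lower in control cells was not counted, so the 1 of 21 has no background. Hist2h3c2 was at 3.58 and 3.57 FPKM in Cdk9-DN cells at day 10 and at 2.95 and 3.76 FPKM at day 5, so the groups overlapped and the change of 0.08 did not pass (limma-type adjusted p = 0.627). Hist1h3g was at 1.67 and 1.97 FPKM at day 10, against 3.59 FPKM in the 1 library that listed it at day 5. It fell by 0.70 (limma-type adjusted p = 0.0170), a call that was lost without Cdk9-DN replicate 1 of day 10 (0.0694).

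The difference between the Cdk9-DN effects of days 10 and 5 was tested directly. It was called higher for 8 of 49 members and lower for 1, against 8.75% and 7.42% of all 5485 genes tested, with a median of 0.57 over the members and 0.02 over all genes. The 8 were Hist1h2ab (0.99, limma-type adjusted p = 0.00293), Hist2h3c2 (0.88), Hist1h2af (0.83), Hist1h2ag (0.75), Hist1h4n (0.71), Hist1h2ae (0.70), Hist1h2ai (0.65) and Hist1h2ao (0.63), so 6 of them encode H2A. At day 5 Hist1h2ag was listed in 1 library per vector and Hist1h2af in 1 Cdk9-DN library. Hist1h2ae was listed in 1 Cdk9-DN library of day 10. Hist1h4i missed the threshold (0.69, limma-type adjusted p = 0.0649), as did Hist1h3b (0.69, limma-type adjusted p = 0.156). The count called fell to 3 without Cdk9-DN replicate 1 of day 5 and 4 without control replicate 2 of day 5. It was 5 without control replicate 2, Cdk9-DN replicate 1 or Cdk9-DN replicate 2 of day 10, and 1 with a replicate block.

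**Figure D3:**
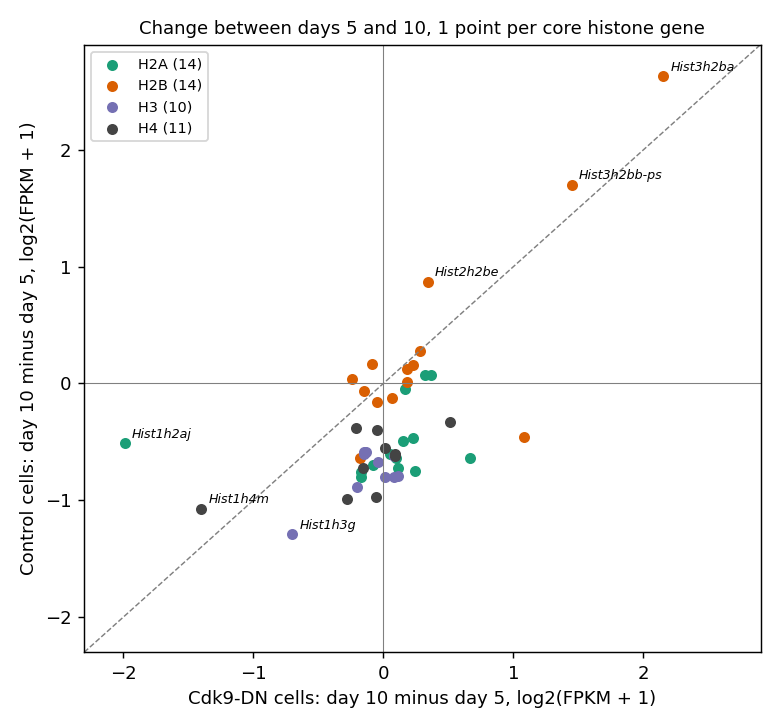
Change between days 5 and 10 on log2(FPKM + 1), in Cdk9-DN cells (horizontal axis) and control cells (vertical axis), for the 49 core histone genes tested in both, coloured by class. The dashed line marks equal change. H2A, H3 and H4 points gather near 0 horizontally and below 0 vertically, with control medians of -0.64, -0.67 and -0.61, and the H2B genes Hist3h2ba, Hist3h2bb-ps and Hist2h2be lie above 0 on both axes.

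Between days 4 and 5, Hist1h2bc was the member called, with both vectors. In Cdk9-DN cells 1 of 51 tested members was called, Hist1h2bc, lower at day 5 by 0.46 (limma-type adjusted p = 0.00923), against 1.95% of all genes called lower and 1.34% higher. In control cells 1 of 52 was called, again Hist1h2bc, lower at day 5 by 0.47 (limma-type adjusted p = 0.00704), against 3.19% of all genes called lower and 1.83% higher. The first call was lost without Cdk9-DN replicate 1 of day 5 (0.0540) and the second without control replicate 1 of day 4 (0.0560).

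A few H2B genes rose by day 10 with both vectors. Hist3h2ba, the stem-loop and promoter of which are printed above (deposited position in mm9 chr11:58762412-58763032), had 4.95 and 7.61 FPKM in Cdk9-DN cells at day 10, against 0.825 and 0.423 FPKM at day 5. In control cells it had 8.18 and 9.85 FPKM at day 10, against 0.175 and 1.20 FPKM at day 5. The log2 changes were 2.15 ± 0.359 in Cdk9-DN cells (SE, limma-type adjusted p = 0.00330) and 2.63 ± 0.359 in control cells (limma-type adjusted p = 7.55e-04). Its neighbour Hist3h2bb-ps, annotated by its symbol as a pseudogene, changed by 1.45 in Cdk9-DN cells and 1.70 in control cells, and both were called. The 2 lie about 5 kb apart in the deposited coordinates and are H2B sequences, and how shared fragments were split between them was not tested.

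Hist2h2be had 1.24 and 1.16 FPKM in Cdk9-DN cells at day 10, against 0.675 and 0.788 FPKM at day 5. In control cells it had 2.34 and 2.81 FPKM at day 10, against 1.09 and 0.830 FPKM at day 5. It rose by 0.34 with Cdk9-DN (SE 0.102, limma-type adjusted p = 0.0358) and by 0.87 with the control vector (SE 0.102, limma-type adjusted p = 3.54e-04), and the test of the difference gave -0.52 with an adjusted p just under the threshold of 0.05. Of the 12 fits without 1 library, the Cdk9-DN change lost its call in 6 (adjusted p up to 0.152, without Cdk9-DN replicate 1 of day 5) and the difference in 11 (up to 0.134, without Cdk9-DN replicate 2 of day 5). Hist1h2bc rose by 0.28 with both vectors (limma-type adjusted p = 0.00486 in Cdk9-DN cells and 0.00310 in control cells). That change was not called in Cdk9-DN cells with median-of-ratios scaling (0.13, adjusted p = 0.0632) or in control cells with quantile normalization (0.16, adjusted p = 0.147).

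**Figure D4:**
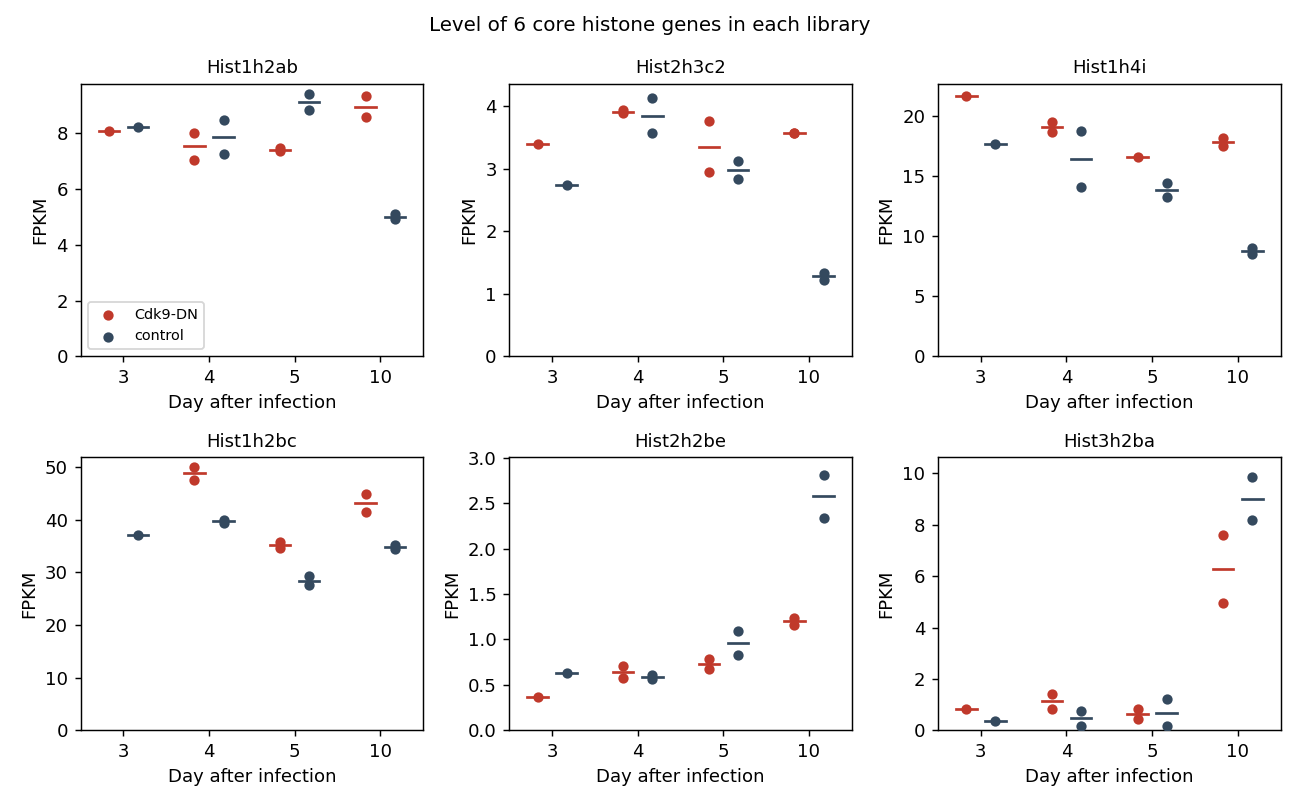
FPKM (vertical axis) of 6 core histone genes in each library against the day after infection (horizontal axis), with Cdk9-DN left of control. Points are libraries and bars group means. Hist1h2ab, Hist2h3c2 and Hist1h4i are lower in control cells at day 10, Hist1h2bc is the highest of the 6, with 27.5 FPKM as its lowest value, and Hist2h2be and Hist3h2ba are higher at day 10 than at day 5 with both vectors.

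H2A and H2B genes often sit side by side, so their changes could be set against each other at the same locus. In the deposited mm9 coordinates, 12 H2A genes had an H2B gene within 1000 bases, 1 of these pairs overlapped (Hist1h2aj and Hist1h2bm), and the other gaps were 166 to 304 bases. Both strands were annotated for 7 pairs, and all 7 were divergent, with their starts facing. At day 10 the Cdk9-DN effect was more positive for the H2A partner in each of the 9 pairs with both genes tested. Of their H2A genes 8 were called higher, and of their H2B genes 2 were called higher and 1, Hist2h2be, lower. Among these, Hist1h2ad, Hist1h2ah, Hist1h2ak, Hist1h2ap and the H2B gene Hist1h2bf lost the call in at least 1 fit without 1 library. Between days 5 and 10 in control cells, the H2A change was the more negative in each of 10 such pairs. Of their H2A genes 8 were called lower, and of their H2B genes 1 was called lower and 1, Hist2h2be, higher. Of those called lower, Hist1h2ad, Hist1h2ag, Hist1h2ah, Hist1h2ak, Hist1h2ap and the H2B gene Hist1h2bf were listed in 1 control library of day 5. In each case it was replicate 2, where the 10 highest genes took 76.1% of the summed FPKM. Without Hist1h2ap, the near-identical copy, the H2A calls were 7 of 8 and 7 of 9 pairs. In Cdk9-DN cells over the same days the H2A change was the more positive in 4 of 6 such pairs. The difference within a pair was not tested.

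Hist1h2ag (chr13:22134347-22134818 in mm9) and Hist1h2bj (chr13:22135082-22135545) lie 263 bases apart. Hist1h2ag had 8.85 and 9.09 FPKM in Cdk9-DN cells at day 10, against 5.47 and 4.83 FPKM in control cells, a log2 difference of 0.70 (limma-type adjusted p = 0.00285). Hist1h2bj had 10.5 and 10.1 FPKM in Cdk9-DN cells, against 7.78 and 7.68 FPKM in control cells, a difference of 0.37 (limma-type adjusted p = 0.00789). Between days 5 and 10 in control cells Hist1h2ag fell by 0.64 and was called, whereas Hist1h2bj changed by 0.12 and was not (limma-type adjusted p = 0.192). Hist1h2ag was listed in 1 control library of day 5, at 8.60 FPKM, and Hist1h2bj in both. At the pair outside the Hist1 cluster, Hist2h2ac (chr3:96024283-96024803) and Hist2h2be (chr3:96025043-96027661), the day 10 effects were 0.27 and -0.70. The 1 pair with both genes called lower in control cells at day 10 was Hist1h2ad (-0.72) and Hist1h2bf (-0.64). Each of these was listed in 1 control library of day 5.

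Neither testis histone was called. Hist1h2ba, an H2B variant of the male germ line, was at 4.21 to 8.54 FPKM in all libraries and was called in no comparison. At days 5 and 10 both its Cdk9-DN values lay above both controls, as for 14.2% and 30.3% of all such genes. Hist1h2aa, at 0.0208 to 0.524 FPKM, did not pass the filter and was not tested. Of 5 germ cell markers none passed the filter, and Tnp1 was at 0 in every library. Hist4h4 was listed at 0 in all 4 libraries of day 10, in both control libraries of day 5 and in Cdk9-DN replicate 1 of day 4, and at up to 1.91 FPKM in the others.

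Some members had a value that stood apart in 1 library. Beside Hist1h4m, Hist1h2an was at 24.5 FPKM (deposited bounds 18.4 to 30.6) in Cdk9-DN replicate 2 of day 10 and at 6.50 to 11.5 FPKM elsewhere, and Hist1h2aj was listed at 0 in that same library and at 9.20 to 14.1 FPKM elsewhere. At day 10 the Cdk9-DN effect on Hist1h2an was 1.25 (limma-type adjusted p = 0.0740), and 0.74 (0.0186) without that library and 1.76 (0.00225) without Cdk9-DN replicate 1 of day 10. That of Hist1h2aj was -1.44 (limma-type adjusted p = 0.502). Hist1h2bm was listed at 0 in control replicate 1 of day 5 and at 3.17 to 4.69 FPKM in the other libraries that listed it.

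Lists around histone supply were counted beside the members. For comparison, 14.5% of all genes tested were called higher with Cdk9-DN at day 10. In control cells 22.5% were called lower between days 5 and 10. Of 38 genes of histone transcription, 3′ end processing and chaperoning, 8 were listed and 6 passed the filter. At day 10, 1 of 5 tested was higher with Cdk9-DN: Cpsf2, a subunit of the complex that cleaves histone pre-mRNA, with 11.4 and 11.5 FPKM against 7.78 and 8.57 FPKM in control cells (log2 difference 0.44, limma-type adjusted p = 0.0158). That call was lost without Cdk9-DN replicate 1 (0.0756), Cdk9-DN replicate 2 (0.0764) or control replicate 1 of day 10 (0.0556). In control cells 4 of 6 tested fell between days 5 and 10, among them Chaf1a, a subunit of the chaperone that deposits new H3-H4 on replicated DNA (-1.16, limma-type adjusted p = 0.00327). Chaf1a was listed in 1 control library of day 10 and 1 of day 5, so its spread comes from the other groups. Of 8 genes of the cyclin E axis, Cdk2 was listed, at 18.0 FPKM in 1 Cdk9-DN library and 16.3 FPKM in 1 control library of day 10, and it could not be tested. Of 5 tested linker histones, which sit outside the octamer, 1 was higher with Cdk9-DN at day 10 (Hist1h1e, 0.34, limma-type adjusted p = 0.0186, lost without Cdk9-DN replicate 1 (0.0728), Cdk9-DN replicate 2 (0.0760) or control replicate 2 (0.0826) of day 10). Of 3 tested replacement variants, which are made outside S phase as well, 2 were higher: H2afx (0.25) and H3f3c (0.19). The H2afx call was lost without Cdk9-DN replicate 1 (0.113), Cdk9-DN replicate 2 (0.0667) or control replicate 2 (0.103) of day 10, and the H3f3c call when any 1 of the 4 libraries of day 10 was left out (0.0529 to 0.0728).

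S phase genes were also higher with Cdk9-DN at day 10. Of a list of 36, 9 were tested at day 10 and 8 were higher with Cdk9-DN, led by the replicative helicase subunits Mcm2 (1.16 ± 0.0566, limma-type adjusted p = 2.39e-04), Mcm3 (1.05) and Mcm4 (0.85). Mcm4 had 29.0 and 28.2 FPKM in Cdk9-DN cells at day 10, against 15.3 and 15.7 FPKM in control cells. Of all genes tested, 14.5% were called higher with Cdk9-DN at day 10. Between days 5 and 10, 5 of 8 tested fell in Cdk9-DN cells and 8 of 8 in control cells. Of all genes, 12.4% and 22.5% were called lower in these comparisons. The part of cycling cells in the histone result was not tested.

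Markers of other cell states were counted at day 10 as well, and few of them could be tested. Of all genes tested at day 10, 14.5% were called higher with Cdk9-DN and 14.4% lower. Of 10 fibroblast markers 5 were listed, and 1 of 3 tested was higher with Cdk9-DN: Dcn, with at least 12.5 FPKM in both libraries against 3.73 and 4.42 FPKM in control cells (log2 difference 1.49, limma-type adjusted p = 2.16e-04). Thy1 had 18.0 and 16.8 FPKM in Cdk9-DN cells and 16.3 FPKM in the 1 control library that listed it. Pdgfra had 0.383 and 0.429 FPKM in Cdk9-DN cells and 0.364 and 0.290 FPKM in control cells, and neither gene was called. Of 7 keratinocyte markers 5 were listed and 0 of 2 tested were called by the limma-type test at day 10, both with an unadjusted p above 0.05 (Krt5 0.357, Lor 0.448). Of 6 endothelial markers 5 were listed, the sum of those listed in every library was 0.957 to 0.974 FPKM in Cdk9-DN cells and 3.68 to 3.81 FPKM in control cells, and 1 of 1 tested was lower with Cdk9-DN (Cldn5, 0.920 and 0.956 FPKM against 3.77 and 3.60 FPKM in control cells, -1.27, limma-type adjusted p = 8.19e-05), which makes up nearly all of that sum. The defining marker Cdh5 was at most 0.0780 FPKM. Tek went the other way from Cldn5, at 23.2 FPKM in Cdk9-DN replicate 2 and 13.9 FPKM in control replicate 1 of day 10. It had no value in the other replicate of either vector at day 10 and could not be tested. Of 7 macrophage markers 3 were listed: Lyz2 was at 0 in both Cdk9-DN libraries and at 0.0349 and 0.133 FPKM in control cells, and Cd68 at 8.70 FPKM in 1 Cdk9-DN library and 42.0 and 39.0 FPKM in control cells. The part of these markers in the histone result was not tested.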

How the data were processed

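Per the submitters' processing notes, the authors handled reads with CASAVA 1.8.2, TopHat2 2.0.10 and Cufflinks 2.2.1 and named the builds mm9 and NCBIM37. The deposited values are FPKM with bounds on either side, library by library. Entries under 1 gene identifier were summed, and 1 entry with a failed status was left out. Taken as 2 standard deviations, the bounds give an implied fragment number, on the assumption that they cover counting error alone. All genes with at least 1 FPKM in at least 2 of 12 libraries (7460) were fitted on log2(FPKM + 1) with a cell means model of 6 groups, on the libraries that list each gene and with at least 2 residual degrees of freedom. Variances were moderated with limma 3.58.1 under R 4.3.3 (intensity trend, 1.15 prior degrees of freedom) and p-values adjusted after Benjamini and Hochberg within each contrast. In simulated data for the Cdk9-DN effect at day 10 (5740 genes), 67, 67 and 66 genes were given log2 changes of 0.5, 1 and 2. The procedure recovered 28.4%, 62.7% and 84.8% of these, with 11 false calls. In the data themselves 14.5% of genes were called higher and 14.4% lower, a larger share than was changed. The recovery and the false calls may therefore differ in the data. Python 3.11.15 with pandas 2.3.3 handled the tables. Stem-loops came from GENCODE M21 transcripts and promoters from RefSeq (GRCm38.p6), neither of the authors' build, so only deposited positions are given as mm9. The 2 day 3 libraries stayed out of the fit. Named genes were the 4 highest of each class, the 3 strongest called in each direction and contrast, members outside Hist1, the testis histones and up to 3 of each other list. Further members were named after their values were seen, as neighbours, as called genes or as outlying values. The members and lists were chosen with earlier results of these data known. Alternatives covered the pseudocount, the filter, 2 scalings, genes in all libraries, the day 3 libraries, a replicate block and each library left out. Counts without Hist1h2ap and sums without Hist1h2al or the Hist3 genes were added after the values were seen.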

Additional observations from a re-analysis of the deposited data

Results flagged for a closer look

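The Cdk9-DN effect differed between days 10 and 5 by a direct test, on log2(FPKM + 1), for 9 genes. The effect at day 10 minus that at day 5 was 0.99 for Hist1h2ab, 0.83 for Hist1h2af, 0.75 for Hist1h2ag, 0.70 for Hist1h2ae, 0.65 for Hist1h2ai, 0.63 for Hist1h2ao, 0.88 for Hist2h3c2, 0.71 for Hist1h4n and -0.52 for Hist2h2be. Of these, Hist1h2ab, Hist1h2ae, Hist1h2af and Hist2h3c2 kept the call in every fit without 1 library that could be run for them. Hist1h2af was listed in 1 Cdk9-DN library of day 5 and Hist1h2ae in 1 of day 10. Without that library the difference could not be fitted. Hist1h2ag was listed in 1 library per vector at day 5. Hist1h4n was the 1 gene of the 9 still called with a replicate block.

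Of the 9, Hist1h2ab had both Cdk9-DN libraries above both controls at day 10 and below them at day 5. In 4 genes, the order was opposite between day 4 and a later day, and this difference was not tested. At day 4 both Cdk9-DN libraries lay below both controls for Hist1h2ag (-0.08), Hist1h2ak (-0.18) and Hist1h4b (-0.32), and at day 10 above them. Hist1h4b was also opposite between days 4 (-0.32) and 5. Hist3h2ba was higher with Cdk9-DN at day 4 (0.55) and lower at day 10. For comparison, at day 4, 14.3% of all tested genes had both Cdk9-DN libraries above both controls and 18.7% below. The share of all genes whose order turned between days was not counted, so these reversals have no background.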

How the results depend on the processing

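Of 12385 alternative values for single genes and comparisons, 11980 kept their direction where called and their side of the threshold, 331 lost a call, 74 gained one and 0 reversed. These values cover members and list genes, and those called in neither fit count as kept. The 11980 is therefore no measure of how stable the calls are. At day 10, the 27 members called for Cdk9-DN against control became 17 with a filter of 5 FPKM, 15 among genes listed in all 12 libraries, 17 with a replicate block and 14 to 32 when 1 library was left out. For control day 10 minus day 5 the 26 became 14, 13 and 15 to 30 with the same filter, in all 12 libraries and leaving 1 library out. For Cdk9-DN day 10 minus day 5 the 5 became 2 with the filter of 5 FPKM and 4 to 6 leaving 1 out. The 9 called for the difference of the effects became 3 in all 12 libraries, 1 with the replicate block and 3 to 9 leaving 1 out. For day 5 minus day 4, the replicate block gave 0 in Cdk9-DN cells, and leaving 1 library out gave 0 to 1 with either vector. Fewer members could be tested under the stricter filter, in all 12 libraries and with the block. Replicate numbers do not pair the libraries (r of 0.02, 0.07 and -0.02 between vectors at days 4, 5 and 10), and crossing the control numbers of days 5 and 10, chosen after seeing the data (r = -0.16), gave 25 calls. The summed H2A ratio at day 10 was 1.56 after quantile normalization, also added afterwards, and 1.63 without Hist1h2al, against 1.47, that of H2B was 1.3 without the Hist3 genes, against 1.11, and leaving out 1 library gave 1.43 to 1.52 for H2A, 1.03 to 1.2 for H2B, 2.22 to 2.92 for H3 and 1.77 to 2.29 for H4. Median-of-ratios scaling moved the median of all genes for Cdk9-DN day 10 minus day 5 to -0.04, against 0.07. A lone library left in a group was assumed to vary like the others. Where a gene was listed in 1 library of a group, its comparison could not be fitted without that library. Calls said to hold in every fit without 1 library do not cover that case. The cause of these shifts was not tested beyond the numbers of genes and libraries that each setting leaves.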
